A study of Mus musculus with 9 samples.

Results

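The cytosolic ribosomal protein genes were described in the mediobasal hypothalamus (MBH) of male mouse offspring at P21. Members were the gene symbols of the authors' log2 CPM table (read counts scaled to library size, on a log2 scale) that start with Rpl or Rps and a digit, together with Rplp0, Rplp1, Rplp2 and Rpsa, without symbols marked as pseudogenes by -ps and without the S6 kinase genes. This rule gave 83 of the 14592 named symbols of that table, and all 83 were also among the 15340 genes tested as sums of estimated counts over all transcripts of a gene. One of them, Rps19bp1, encodes a protein that binds a ribosomal protein and is not part of the ribosome. Rps12, a protein of the small subunit, lay outside the rule because its symbol is not in that table.

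Ribosomes translate mRNA into protein. Each is built from a small subunit, which reads the message, and a large subunit, which joins the amino acids, and each subunit holds ribosomal RNA and 1 copy of most of its proteins. Ribosomal protein mRNAs are short and abundant, and most start with a run of pyrimidines, the 5′ terminal oligopyrimidine (TOP) motif, through which mTOR signaling controls their translation. Several of these genes have many pseudogenes in the mouse genome, made by reverse transcription of their mRNAs.

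The question was whether maternal consumption of emulsifiers was accompanied by a difference in these mRNAs in the offspring. From before mating until the end of lactation, dams were given plain drinking water (CTRL) or the emulsifiers carboxymethylcellulose (CMC) and polysorbate 80 (P80) in it, each at 1% (Emul). Offspring of both groups were wild-type C57Bl/6 males, and the 4 CTRL and 5 Emul libraries came from that many litters; whether a library holds 1 pup or several of a litter is not given in the sources used here. The labels give the age as P21 and after weaning, and direct intake by pups before weaning cannot be told apart from maternal exposure. Each library is a whole-tissue dissection, so fewer cells of a type and less RNA per cell cannot be told apart.

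Estimated counts summed to between 28245360 and 46067534 per library, with the lowest total in CTRL 3. The arcuate markers of the MBH (Pomc, Agrp, Npy, Cartpt, Tac2 and Ghrh) were present in all libraries, with a summed level of 420 to 646 TPM, and the pituitary markers Gh, Prl and Lhb together stayed under 0.88 TPM. Of the oligodendrocyte markers Mbp, Mog and Mag, 2 were lower in Emul at an unadjusted p under 0.05, and their sum was 7000 to 8905 TPM in CTRL and 5358 to 7362 TPM in Emul, with Emul 4 alone in the CTRL range. Of the 4 astrocyte markers, 1 was lower at that threshold, and their sum did not overlap, with 636 to 711 TPM in CTRL and 512 to 605 TPM in Emul. Of the 3 neuronal markers, 2 were higher at that threshold, and their sums overlapped, with 1361 to 1534 TPM in CTRL and 1414 to 1523 TPM in Emul. Of 2 ventromedial markers 1 was lower, of 3 thalamic markers 1 was higher (sum 52.2 to 72.2 TPM in CTRL, 47.2 to 139 TPM in Emul, highest in Emul 3), and 0 of those of tanycytes, microglia, endothelium, choroid plexus or red blood cells had an unadjusted p under 0.05. All 13 mitochondrially encoded protein genes were higher at that threshold, with a median log2 fold change of 0.37, and took 4.51% to 5.52% of counts in CTRL and 5.71% to 6.75% in Emul. The marker p-values come from scaled counts, but the marker sums are in TPM. On TPM the median log2 ratio of Emul to CTRL over all genes tested was -0.10, so the 2 scales differ. The part of the marker and mitochondrial differences in the values below was not tested, except for a fit without the mitochondrial genes, given below.

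Ribosomal protein mRNAs were among the abundant messages of this tissue. On the per-length scale of TPM (transcript abundance scaled to a fixed total per library), the mean over 9 libraries had a median of 380 TPM over the members, and quartiles of 231 and 501 TPM. The highest levels belonged to Rpl41, with 1157 TPM, Rpl13a, with 1014 TPM, Rplp1, with 931 TPM, and Rps24, with 921 TPM. At the other end stood Rpl12, with 16.8 TPM, Rps19bp1, with 22.1 TPM, Rpl5, with 35.6 TPM, and Rpl7l1, with 43.0 TPM. Together the members took 0.918% to 0.951% of all counts in CTRL and 0.868% to 1.05% in Emul, so the Emul range held the whole CTRL range.

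**Figure D1:**
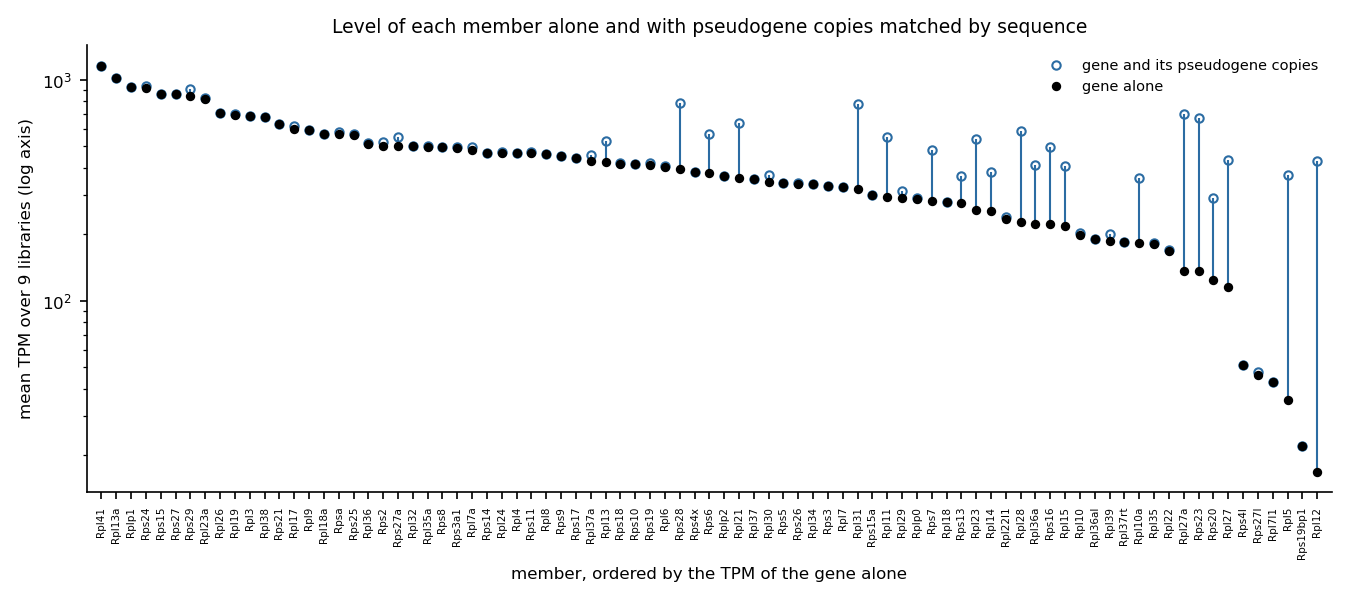
Mean TPM over 9 libraries (log axis) of each of the 83 members, ordered by the level of the gene alone (filled points), with the level after adding its pseudogene copies (open points, joined by a line). Rpl12 stands last with 16.8 TPM alone and reaches 431 TPM with its copies.

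The annotated starts carry the TOP motif more often than starts in general. The sequences at the start are shown because they are the feature that these mRNAs are best known to share. RefSeq's table of the GRCm38.p6 build held 62 of the 83 members. A C followed by at least 4 further letters that are C or T, read on the strand of the gene and placed exactly at the annotated first base, was present in 13 of the 62 members (21%) and in 3.01% of all 27025 genes of the table. Allowing such a run to begin within 5 bases of the annotated start raised these shares to 46.8% of the members and 21.2% of all genes. A match describes the letters at an annotated start and is not proof of where transcription begins. In the windows below, the first base of the annotated mRNA is the eleventh letter. Capitals mark the pyrimidine run from the match at or nearest that base, and pyrimidines directly before it are in lower case.
Rpl15 (chr14:18270972-18270996, minus strand): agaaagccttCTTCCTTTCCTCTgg
Rpl35 (chr2:39005117-39005141, minus strand): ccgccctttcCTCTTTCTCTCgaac
Rps10 (chr17:27635230-27635254, minus strand): gcgcacgcccCTTCCTTTCCagcct
Rps18 (chr17:33955651-33955675, minus strand): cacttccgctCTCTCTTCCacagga
Rps6 (chr4:86857353-86857377, minus strand): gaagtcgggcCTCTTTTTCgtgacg
Rplp2 (chr7:141447641-141447665, plus strand): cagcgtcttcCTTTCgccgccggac
For comparison, the annotated starts of 3 members that differed between the groups at an unadjusted p under 0.05 are shown. None of the 13 members with a run exactly at the start was at that threshold. Of the 10 members at that threshold, named further on, RefSeq's table held 7. Such a run began within 5 bases of the start in 2 of these 7, Rps23 and Rps24. In the other 5 (Rpl4, Rpl5, Rpl24, Rps25 and Rps3a1) it did not. In Rps24 the match nearest the annotated start began 1 base before it, with further pyrimidines directly upstream. In Rps23 the run began 3 bases after the annotated start, and in Rpl5 no such run began within 5 bases.
Rps24 (chr14:24490668-24490692, plus strand): gctggggtcCTTCCTTgcgcgttga
Rps23 (chr13:90923112-90923136, plus strand): cggctgggcggggCTTCCCgcaatg
Rpl5 (chr5:107900518-107900542, plus strand): cgtcgcttgcgtgctggtggtgcta

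Most ribosomal protein mRNAs had a slightly higher mean in Emul than in CTRL on the scale used for testing, and no single gene passed correction for multiple testing in limma-voom. On log2 CPM scaled by TMM (trimmed mean of M values), 71 of the 83 members had a positive log2 fold change (Emul minus CTRL) and 12 a negative one, while on TPM most were lower, as given further on. The median was 0.061, a fold of 1.04, beside 0.002 over all genes tested, of which 50.8% were positive. At an unadjusted p under 0.05 (limma-voom), 10 members (12%) were higher, against 6.84% of all genes tested, and 0 were lower, against 8.99% of all genes tested. These 10 were Rpl4, Rpl5, Rpl17, Rpl23a, Rpl24 and Rpl32 of the large subunit and Rps3a1, Rps23, Rps24 and Rps25 of the small subunit.

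None of the members passed a Benjamini-Hochberg adjusted p under 0.05 in limma-voom, a threshold that 0.117% of all genes passed, and the lowest adjusted p among them was 0.158. DESeq2 placed 1 member, Rpl23a, past it, and the share of all genes past it there is not given here. None passed the cutoff of a p under 0.05 with a fold above 1.5 either, which 0.469% of all genes passed, and the largest fold among the members was 1.21. All Emul libraries stood above all CTRL libraries for 2 members (2.41%), Rpl23a and Rps24, against 2.80% of all genes. The reverse held for 1 member, Rps19bp1, against 3.80% of all genes. In 65 of the 83 members the difference between the group means was smaller than the SD between libraries within groups.

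**Figure D2:**
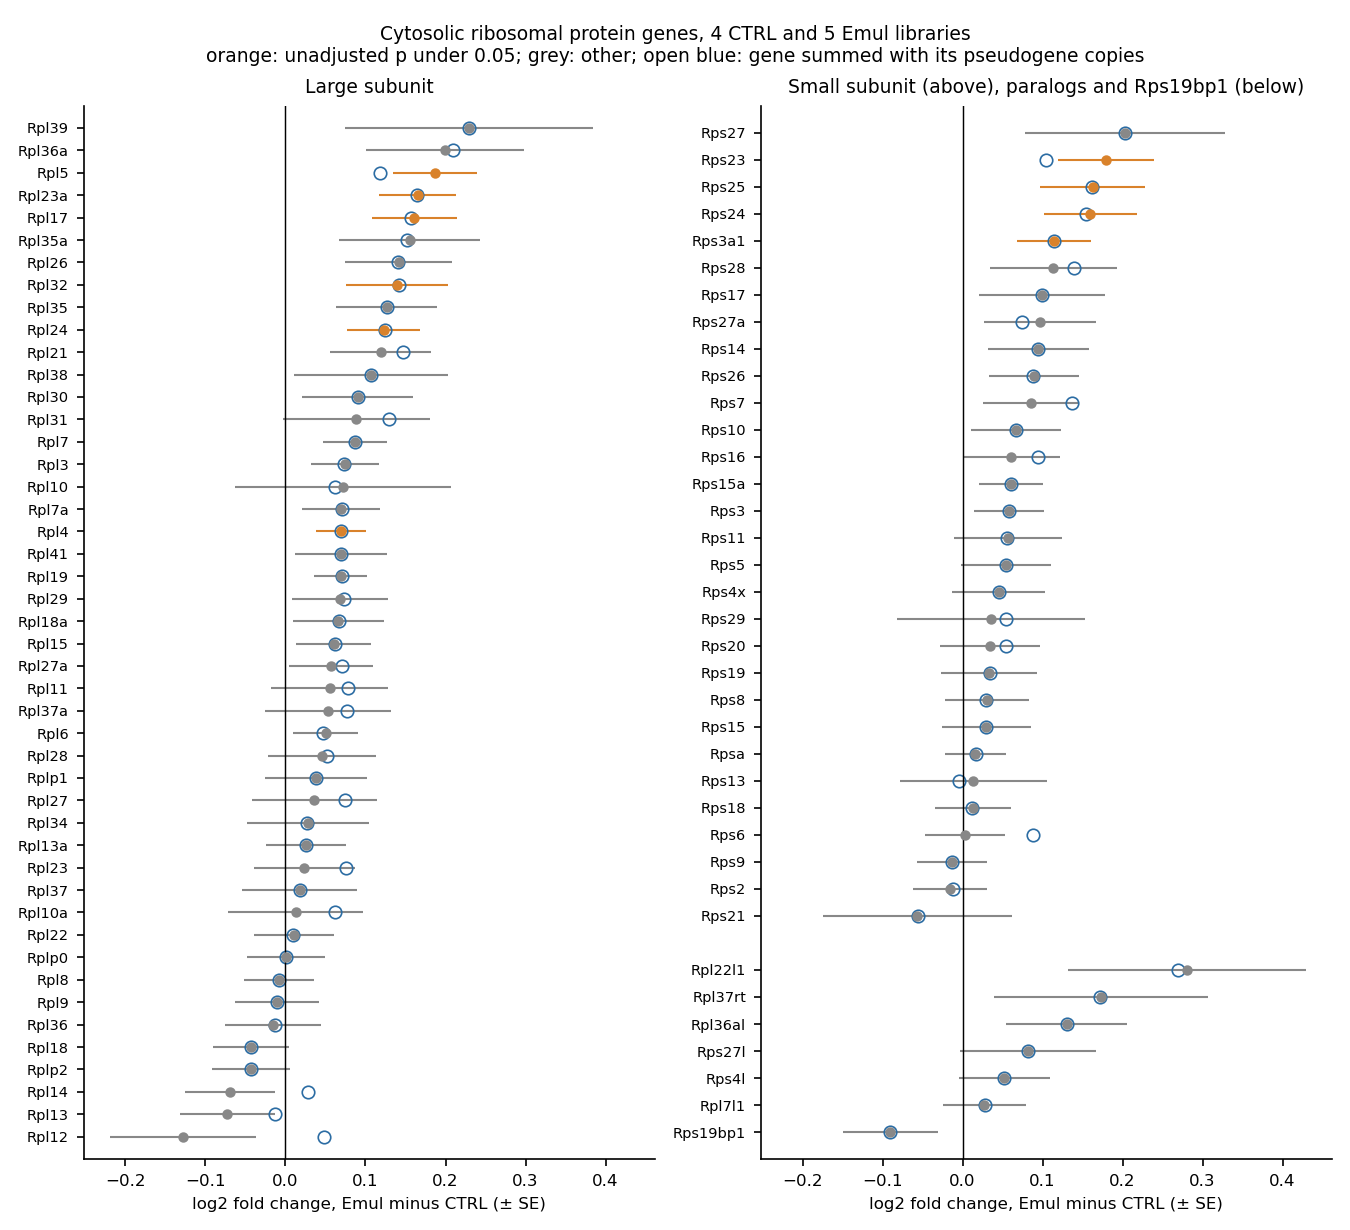
Log2 fold change (Emul minus CTRL) with its SE for each of the 83 members, split into large subunit (left) and small subunit, paralogs and Rps19bp1 (right), from limma-voom over 4 CTRL and 5 Emul libraries. Orange points had an unadjusted p under 0.05, and open blue points give the value after adding pseudogene copies. Points lie to the right of 0 for 71 members, between -0.13 for Rpl12 and 0.28 for Rpl22l1.

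In the large subunit, 38 of 46 members were on the higher side, 6 of them at an unadjusted p under 0.05, with a median log2 fold change of 0.06. Rpl5 (chr5:107900502-107909005 on mm10), which carries the 5S ribosomal RNA into the large subunit, measured 4.47, 4.39, 4.29 and 4.23 log2 CPM in CTRL 1 to 4 and 4.46, 4.55, 4.57, 4.56 and 4.51 in Emul 1 to 5. The groups met at a single point, since only CTRL 1 reached into the Emul range. Its log2 fold change was 0.19 ± 0.05 (SE; limma-voom adjusted p = 0.158, exact permutation p = 0.0159). Rpl23a (chr11:78180932-78183584), which sits at the exit of the peptide tunnel, measured 7.39, 7.34, 7.35 and 7.34 log2 CPM in CTRL and 7.60, 7.65, 7.40, 7.43 and 7.53 in Emul. Every Emul library was above every CTRL library, and the CTRL values were the closer together, with an SD of 0.02 against 0.11. The log2 fold change of Rpl23a was 0.17 ± 0.05 (SE; limma-voom adjusted p = 0.169, exact permutation p = 0.0317).

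Rpl17 and Rpl4 line the tunnel through which the new peptide leaves. Rpl17 (chr18:74998558-75003381) measured 7.51, 7.61, 7.43 and 7.59 log2 CPM in CTRL and 7.77, 7.80, 7.55, 7.63 and 7.73 in Emul, so that Emul 3 alone lay within the CTRL range. The difference was 0.16 ± 0.05 (SE; limma-voom adjusted p = 0.189, exact permutation p = 0.0556). In Rpl4 (chr9:64173375-64178666) the values were 8.36, 8.40, 8.33 and 8.38 log2 CPM in CTRL and 8.51, 8.41, 8.38, 8.42 and 8.47 in Emul. This is the smallest difference among the 10, at 0.07 ± 0.03 (SE; limma-voom adjusted p = 0.304, exact permutation p = 0.0397), in a gene whose libraries lay close together. Rpl39, the third protein of the tunnel, had the largest spread of all members within groups (SD 0.30). It measured 5.59, 5.25, 4.96 and 5.54 log2 CPM in CTRL and 5.57, 6.10, 5.31, 5.45 and 5.48 in Emul, with Emul 2 far above the other libraries, and its log2 fold change of 0.23 ± 0.16 (SE) had an adjusted p of 0.497 in limma-voom.

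Rpl24 lies at the face between the subunits. Its values were 6.96, 6.92, 6.88 and 6.94 log2 CPM in CTRL and 7.07, 7.18, 6.93, 6.97 and 7.07 in Emul, a difference of 0.12 ± 0.05 (SE; limma-voom adjusted p = 0.231, exact permutation p = 0.0635). Rpl32 measured 6.56, 6.51, 6.43 and 6.53 log2 CPM in CTRL and 6.65, 6.86, 6.48, 6.56 and 6.68 in Emul, a difference of 0.14 ± 0.06 (SE; limma-voom adjusted p = 0.311, exact permutation p = 0.0952). In both genes Emul 3 fell within the CTRL range and Emul 2 was the highest library.

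Several well-known or abundant proteins of the large subunit had no unadjusted p under 0.05. Rpl11, the partner of Rpl5 in the 5S particle that also binds Mdm2, had a log2 fold change of 0.06 ± 0.07 (SE; limma-voom adjusted p = 0.754). Among the 3 proteins of the stalk, which recruits the elongation factors, Rplp0 had a log2 fold change of 0.00 ± 0.05 (SE) and Rplp1 of 0.04 ± 0.06 (SE), and none of the 3 had an unadjusted p under 0.05. Rpl41, the most abundant member, had 0.07 ± 0.06 (SE), and Rpl13a had 0.03 ± 0.05 (SE). The lowest value of all members was that of Rpl12, which sits at the base of the stalk, at -0.13 ± 0.09 (SE; limma-voom adjusted p = 0.526). Rpl12 measured 3.26, 3.41, 3.28 and 3.23 log2 CPM in CTRL and 3.29, 3.35, 3.01, 3.23 and 2.92 in Emul.

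In the small subunit, 27 of 30 members were on the higher side, 4 of them at an unadjusted p under 0.05, with a median log2 fold change of 0.06. Rps24 (chr14:24487125-24496959), a protein needed for processing of the 18S ribosomal RNA precursor, measured 7.53, 7.51, 7.43 and 7.54 log2 CPM in CTRL and 7.62, 7.89, 7.56, 7.61 and 7.64 in Emul. The groups did not overlap, and Emul 2 stood apart above the others. Its log2 fold change was 0.16 ± 0.06 (SE; limma-voom adjusted p = 0.220, exact permutation p = 0.0159). Rps23 (chr13:90922958-90924950), which lies at the decoding center, measured 5.49, 5.50, 5.28 and 5.42 log2 CPM in CTRL and 5.61, 5.76, 5.47, 5.58 and 5.62 in Emul. Only Emul 3 lay within the CTRL range, and the difference was 0.18 ± 0.06 (SE; limma-voom adjusted p = 0.194, exact permutation p = 0.0317).

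Rps25 takes part in initiation at internal ribosome entry sites. It measured 6.81, 6.83, 6.70 and 6.75 log2 CPM in CTRL and 6.96, 7.17, 6.77, 6.88 and 6.91 in Emul, a difference of 0.16 ± 0.07 (SE; limma-voom adjusted p = 0.258, exact permutation p = 0.0556). Rps3a1 had 7.67, 7.72, 7.67 and 7.68 log2 CPM in CTRL and 7.84, 7.92, 7.67, 7.72 and 7.83 in Emul, a difference of 0.11 ± 0.05 (SE; limma-voom adjusted p = 0.257, exact permutation p = 0.0873). In both genes Emul 3 fell within the CTRL range. Rps6, the substrate of the S6 kinases, had a log2 fold change of 0.00 ± 0.05 (SE; limma-voom adjusted p = 0.986), and Rpsa, also known as the laminin receptor, had 0.02 ± 0.04 (SE; limma-voom adjusted p = 0.877). Rps12, tested outside the rule, had -0.08 ± 0.08 (SE; limma-voom adjusted p = 0.682).

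**Figure D3:**
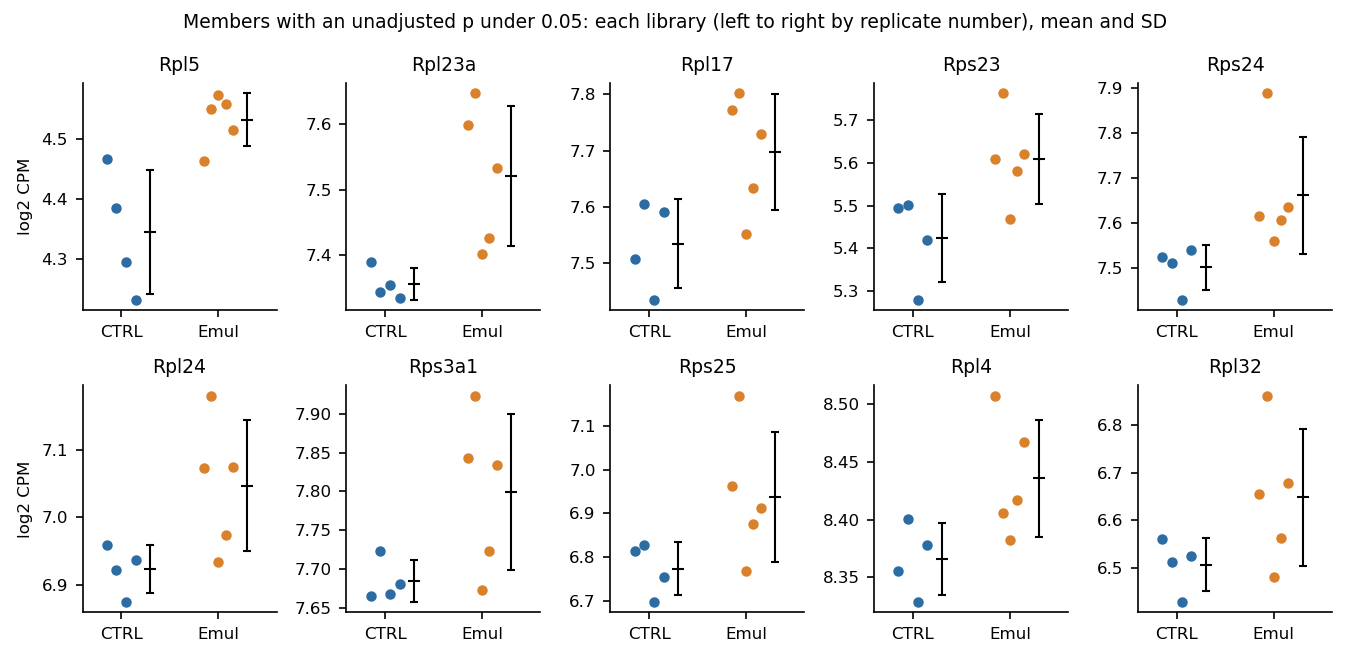
Log2 CPM in each library of the 10 members with an unadjusted p under 0.05 (blue, 4 CTRL; orange, 5 Emul; left to right by replicate number), with the mean and SD of each group beside the points; each panel has its own axis, which does not start at 0. The groups do not overlap for Rpl23a and Rps24, and in the other 8 panels at least 1 library lies in the range of the other group.

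Of 10 listed members that are mutated in Diamond-Blackfan anemia, a failure of red blood cell production, all 10 were on the higher side, 2 of them (Rpl5 and Rps24) at an unadjusted p under 0.05, beside 85.5% on the higher side and 12% at that threshold over all members, and 50.8% and 6.84% over all genes. Of 11 listed paralogs, 6 were members, all 6 were on the higher side and 0 had an unadjusted p under 0.05. Rpl22l1, the paralog of Rpl22, had the largest log2 fold change of all members, 0.28 ± 0.15 (SE; limma-voom adjusted p = 0.384). Its values were 5.51, 5.47, 5.10 and 5.60 log2 CPM in CTRL and 5.77, 6.22, 5.35, 5.61 and 5.61 in Emul. Emul 2 was the highest and CTRL 3 the lowest library, and the groups overlapped. Rpl22 itself had 0.01 ± 0.05 (SE). The log2 fold change was 0.20 ± 0.12 (SE) for Rps27 and 0.08 ± 0.09 (SE) for Rps27l, and it was 0.20 ± 0.10 (SE) for Rpl36a and 0.13 ± 0.08 (SE) for Rpl36al. Rpl10, whose SD within groups of 0.26 was the third largest, had 0.07 ± 0.14 (SE). Rpl7, the parent of Rpl7l1, had 0.09 ± 0.04 (SE) and Rpl7l1 0.03 ± 0.05 (SE), and Rpl37, the parent of Rpl37rt, had 0.02 ± 0.07 (SE). On TPM, Rpl22l1 stood above Rpl22 (234 against 167 TPM over 9 libraries), while Rps27l stood far below Rps27 (46.3 against 859 TPM) and Rps4l below Rps4x (51.4 against 384 TPM). Rpl36al and Rpl36a were close to each other as genes alone (191 and 223 TPM). With its pseudogene copies Rpl36a reached 410 TPM, while Rpl36al had no matched copy. Rps4l and Rpl37rt are annotated as transcribed processed pseudogenes and had log2 fold changes of 0.05 ± 0.06 and 0.17 ± 0.13 (SE). Rps19bp1, the member that is no ribosomal protein, measured 2.96, 3.01, 3.03 and 2.96 log2 CPM in CTRL and 2.94, 2.91, 2.86, 2.91 and 2.86 in Emul. Its difference was -0.09 ± 0.06 (SE; limma-voom adjusted p = 0.484, exact permutation p = 0.0159), with all Emul libraries below all CTRL libraries.

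The members moved together from library to library. After each gene's group mean was subtracted, the median correlation over 9 libraries was 0.72 across 3403 pairs of members and -0.0046 across pairs of a member with another gene. These points share the depth and composition of the same libraries. Emul 2 was the highest library for 57 of the 83 members, Emul 3 was the lowest for 42, and CTRL 3 was the lowest for 28. The median deviation of a member from its own mean was 0.08, 0.17, -0.12, -0.02 and 0.03 on the log2 scale in Emul 1 to 5. In CTRL 1 to 4 it was -0.01, -0.02, -0.09 and -0.02. The 5 Emul libraries therefore spanned the CTRL libraries on both sides, with Emul 3 below and Emul 2 above all of them.

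Single libraries set how many members passed the unadjusted threshold. Without Emul 3, 27 members were higher and 0 lower, against 6.65% and 8.21% of all genes in that fit, with 77 of 83 on the higher side and a median log2 fold change of 0.098. Without CTRL 3, 4 were higher, against 5.24% of all genes, a share no lower than that of the members. Without Emul 1 or CTRL 4, 6 were higher, against 6.29% and 5.13% of all genes. Without Emul 2, 54 of 83 members were on the higher side and the median log2 fold change was 0.028, with 8 members higher and 1, Rps21, lower at that threshold, against 6.90% and 9.07% of all genes. With both Emul 2 and Emul 3 left out, a choice made after the data were seen, 69 were on the higher side, the median was 0.067, and 19 members were higher and 0 lower, against 5.95% and 8.03% of all genes. Rpl5, Rpl17, Rpl23a and Rps23 stayed under an unadjusted p of 0.05 whichever 1 of the 9 libraries was left out. Among these fits, Rpl24 and Rps24 left that threshold only without CTRL 3, where the Rps24 log2 fold change was 0.14. Of 19 other alternatives, Rpl5, Rpl17, Rpl23a and Rps24 stayed under it in all 19, Rpl24 in 18 and Rps23 in 15.

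**Figure D4:**
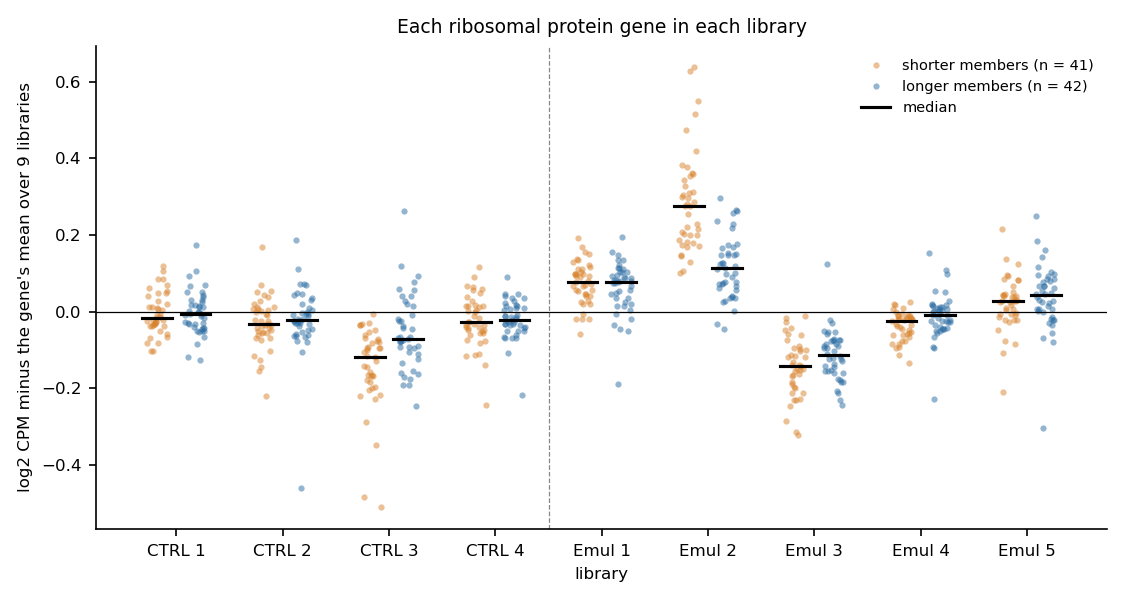
Log2 CPM of each member minus its own mean over 9 libraries, by library (4 CTRL, 5 Emul), for the 41 shorter members (orange) and the 42 longer ones (blue), with medians as bars. Emul 2 holds the highest values, with a median of 0.28 for shorter and 0.11 for longer members, and Emul 3 has medians of -0.14 and -0.11.

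Transcript length went with the position of several libraries. The mean length of the transcripts of a member, weighted by estimated counts, had a median of 730 bases over the members. Across the 83 members, which are not independent replicates, the correlation of the deviation with log2 length was -0.54 in Emul 2, 0.37 in CTRL 3, 0.33 in Emul 3 and 0.27 in Emul 4. In the other 5 libraries it lay between -0.08 and 0.07. The median log2 fold change was 0.09 over the 41 shorter members and 0.05 over the 42 longer ones. Of 972 other genes under 1000 bases, 66.2% had a positive log2 fold change, with a median of 0.05, and 10.4% were higher and 3.09% lower at an unadjusted p under 0.05. When each library's trend with length was removed, 51 of 83 members were on the higher side and the median fell to 0.02. Then 9 members were higher (8 of the 10, and Rpl7) and 5 were lower at an unadjusted p under 0.05, namely Rpl13, Rpl14, Rpl18, Rpl36 and Rplp2, with log2 fold changes of -0.11, -0.10, -0.09, -0.11 and -0.10. Of all genes, 8.04% were higher and 8.70% lower in that fit, so both counts lay near the background.

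The direction of the whole group depended on the scale. On TPM, in which every library has the same sum, 56 of 83 members had a lower mean in Emul than in CTRL and 27 a higher one, with a median log2 ratio of -0.03. All genes tested moved further on that scale, with a median of -0.10, and 71 members lay above that median. The mitochondrially encoded protein genes held 12.6% to 15.4% of TPM in CTRL and 16.2% to 19.2% in Emul. With library sizes alone in place of TMM, 57 members were on the higher side, with a median of 0.03 beside -0.03 over all genes, and 5 were higher and 0 lower at an unadjusted p under 0.05, against 3.37% and 14.7% of all genes. With the mitochondrial genes left out before scaling, 71 were on the higher side. In that fit 11 were higher and 0 lower at that threshold, against 7.20% and 8.56% of all genes. In the authors' log2 CPM table, 66 of 83 members were on the higher side, with a median of 0.06. At an unadjusted p under 0.05 (limma-trend), 10 were higher, 7 of them among the 10 above, and 0 were lower. Of all genes, 6.05% were higher and 7.42% lower in that table. Rpl5, Rpl23a and Rps24 had log2 fold changes of 0.13, 0.17 and 0.18 there, with adjusted p-values of 0.304, 0.245 and 0.272 in limma-trend. Rps25 had 0.11 ± 0.21 (SE) there, a wider error than in the gene sums.

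Some members shared most of their reads with pseudogenes. Pseudogene transcripts were matched to the closest gene by sequence, and 71 members had at least 1 matched copy with counts. Copies took less than 1% of the summed counts for 49 members and 5% or more for 23. The share was 91.8% for Rpl12, 87.3% for Rpl5, 61.9% for Rps23, 60.0% for Rpl27 and 57.0% for Rpl27a. The copy with most of the counts was identical to its parent over a long run in each of these. For Rpl5 it was Gm15500 (chr7:114705217-114706235, minus strand), identical over 1018 bases, and for Rpl12 it was Gm10275 (chr10:29698746-29699380, minus strand), identical over 634 bases. Reads of 50 bases inside such a run cannot be told apart, so the estimated counts of gene and copy are uncertain there. Of the counts left to Rpl12, 46.3% lay on 1 retained-intron transcript, and 59.6% of those left to Rpl5 lay on its main coding transcript.

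Adding the copies to their genes, a choice made after the data were seen, gave levels for Rpl12 and Rpl5 near those of the other members, at 431 and 371 TPM. With copies, 72 of 83 members were on the higher side, with a median log2 fold change of 0.07. In that fit 13 were higher and 0 lower at an unadjusted p under 0.05, against 6.81% and 9.003% of all genes. Rpl5 then had 7.37, 7.41, 7.31 and 7.37 log2 CPM in CTRL and 7.49, 7.56, 7.42, 7.43 and 7.52 in Emul. The groups no longer overlapped, and the log2 fold change was 0.12 ± 0.04 (SE; limma-voom adjusted p = 0.172, exact permutation p = 0.0238). Rps6 with its copies had 7.64, 7.64, 7.63 and 7.63 log2 CPM in CTRL and 7.80, 7.80, 7.65, 7.66 and 7.72 in Emul. Without copies Rps6 had shown no difference, and with them the groups did not overlap, with 0.09 ± 0.04 (SE; limma-voom adjusted p = 0.261, exact permutation p = 0.0556). A copy of Rps6, Rps6-ps4, had a log2 fold change of 0.31 ± 0.07 (SE; limma-voom adjusted p = 0.102). Rps23 with copies had 0.10 ± 0.05 (SE) and left the unadjusted threshold, while Rpl21, Rpl36a, Rps6 and Rps7 entered it. The sign turned for Rpl12, Rpl14 and Rps13, and Rpl12 had 0.05 ± 0.04 (SE) with its copies.

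Most of the counts of the members lay on protein-coding transcripts, 89.1% in CTRL and 89.0% in Emul. Retained-intron transcripts took 3.22% and 3.27%, and transcripts marked for nonsense-mediated decay took 5.17% and 5.16%. Rpsa and Rpl13a, both abundant, had less, since coding transcripts took 16.1% of the counts of Rpsa and 34.6% of those of Rpl13a. With coding transcripts alone, 60 of 81 members were on the higher side. At an unadjusted p under 0.05, 7 were higher and 1, Rpl13a, was lower, against 6.23% and 8% of all genes. The Rpl13a log2 fold change was -0.18 in that fit, in place of 0.03.

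Fau and Rack1, ribosomal proteins that carry other names, did not pass the unadjusted threshold. Fau, which encodes a protein of the small subunit fused to a ubiquitin-like protein, had a log2 fold change of 0.05 ± 0.05 (SE). Rack1, the signaling scaffold of the small subunit, had 0.00 ± 0.04 (SE). Of the 14 other mRNAs listed for a TOP start, 12 were on the higher side and 4 (28.6%) were higher at an unadjusted p under 0.05, namely Npm1, Eif3e, Btf3 and Naca, against 6.84% of all genes. Npm1, the nucleolar chaperone that takes part in ribosome assembly, measured 7.31, 7.28, 7.25 and 7.31 log2 CPM in CTRL and 7.47, 7.47, 7.40, 7.34 and 7.54 in Emul. The groups did not overlap, with a difference of 0.16 ± 0.04 (SE; limma-voom adjusted p = 0.124, exact permutation p = 0.0159). Eif3e, a subunit of the initiation factor that binds the small subunit, had 0.14 ± 0.04 (SE; limma-voom adjusted p = 0.154, exact permutation p = 0.0159), also with no overlap. Such separation above CTRL held for 2 of the 14, against 2.80% of all genes.

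Among 8 elongation factors, 1 (12.5%, against 6.84% of all genes) was higher at an unadjusted p under 0.05, Eef1a2, the form of the factor used by mature neurons, with 0.08 ± 0.03 (SE; limma-voom adjusted p = 0.272). Eef1b2, which recharges it with GTP, had 0.08 ± 0.05 (SE). Eef1a1, the general form, had 0.05 ± 0.04 (SE) and Eef2, which moves the ribosome along the mRNA, had -0.02 ± 0.03 (SE). Among 24 further initiation factors, 5 (20.8%) were higher and 0 lower at that threshold, against 6.84% and 8.99% of all genes. The smallest p belonged to Eif4a2, an RNA helicase, and Eif5, which acts when the start codon is found, each with 0.10 ± 0.03 (SE; limma-voom adjusted p = 0.179 for both).

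Genes that make ribosomes lay on both sides. Of 60 ribosome biogenesis genes, 29 were on the higher and 31 on the lower side, with 2 higher and 3 lower at an unadjusted p under 0.05, against 6.84% and 8.99% of all genes. Grwd1, a histone-binding factor that associates with the pre-ribosome, had -0.20 ± 0.07 (SE; limma-voom adjusted p = 0.190), and Rpf2, which brings the 5S particle into the large subunit, had 0.18 ± 0.06 (SE; limma-voom adjusted p = 0.214). Of 15 genes of RNA polymerase I and its factors, which transcribe the ribosomal RNA, 12 were on the lower side, 2 of them (13.3%) at that threshold, and 1 (6.67%) was higher, against 8.99% and 6.84% of all genes. Polr1b, its second largest subunit, measured 4.31, 4.25, 4.20 and 4.24 log2 CPM in CTRL and 4.10, 4.09, 4.10, 4.16 and 4.03 in Emul. The groups did not overlap, with a difference of -0.16 ± 0.05 (SE; limma-voom adjusted p = 0.167, exact permutation p = 0.0079, the smallest value that 126 splits allow). Taf1c, a subunit of the promoter factor of RNA polymerase I, had -0.16 ± 0.07 (SE; limma-voom adjusted p = 0.297).

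Of 22 genes that act on TOP mRNAs (mTOR and its pathway, the LARP proteins and MYC factors), 0 were higher and 3 were lower at an unadjusted p under 0.05, which were Eif4ebp2, Tsc1 and Tsc2. These are 13.6% of the list, against 8.99% of all genes. Eif4ebp2, a repressor of the cap-binding factor that is released by mTOR, measured 6.37, 6.38, 6.39 and 6.35 log2 CPM in CTRL and 6.23, 6.26, 6.16, 6.24 and 6.22 in Emul. The groups were well apart relative to the spread of either one, with -0.15 ± 0.03 (SE; limma-voom adjusted p = 0.081, exact permutation p = 0.0079). Tsc1 and Tsc2, which together restrain mTOR, had -0.07 ± 0.03 (SE) each, with an adjusted p of 0.264 and 0.249 in limma-voom. Mtor itself had 0.03 ± 0.03 (SE), and Larp1, which binds the TOP start, had 0.00 ± 0.03 (SE). Of 15 listed hosts of small nucleolar RNAs, 1 was tested and 0 had an unadjusted p under 0.05. The others had no transcript among those quantified and matched to genes, so their levels are not known here.

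**Figure D5:**
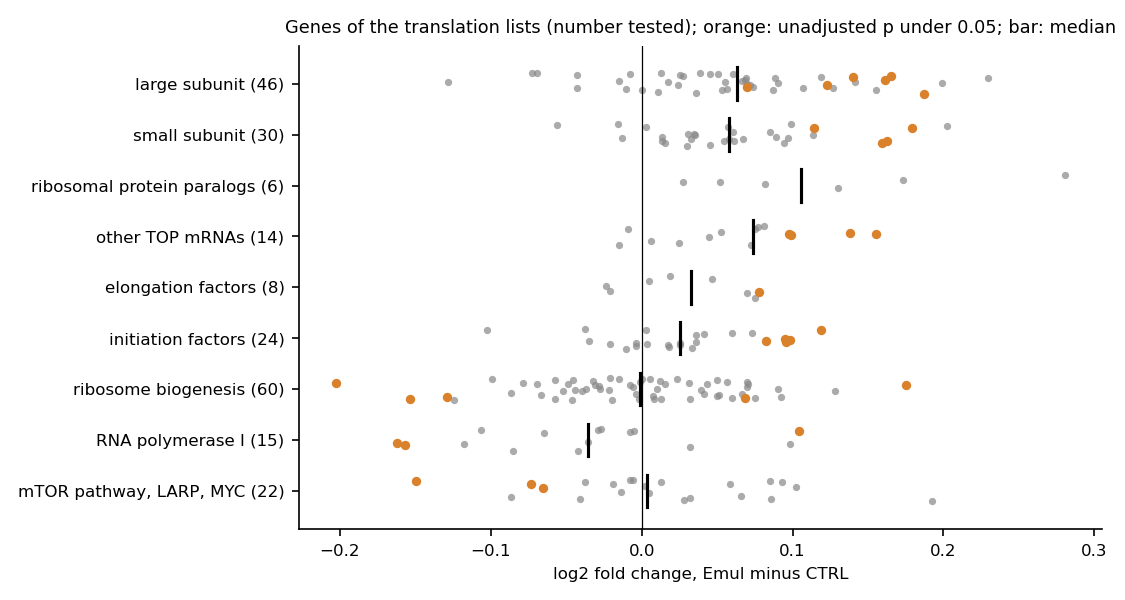
Log2 fold change (Emul minus CTRL, limma-voom) of each gene of 9 lists, with the number tested in brackets, orange where the unadjusted p was under 0.05 and a bar at the median. Both subunits have medians of 0.06, that of the ribosome biogenesis genes is close to 0 and that of the RNA polymerase I genes is -0.04.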

How the data were processed

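From MBH RNA of males at P21 from 4 CTRL and 5 Emul litters, the authors sequenced strand-specific mRNA libraries as read pairs of 50 bases. Per the labels and the paper's methods, transcripts were quantified with kallisto (0.46.1 in the submitters' processing notes, which also list FastQC 0.11.9 and edgeR 3.40.1) on mm10. The authors deposited estimated counts, not normalized, and TPM, normalized for length and depth, for 119414 transcripts per library. A further table deposited by the authors gives log2 CPM per gene symbol; its summary over transcripts is not given in the sources used here. Groups and replicate numbers were taken from the labels; no batch is given there.

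Transcripts were matched by identifier to GENCODE M21 (97.8%), and the 1.20% to 1.27% of counts on unmatched ones were left out. Counts were summed per gene (rounded only for edgeR and DESeq2), kept at a CPM above 1 in at least 4 libraries, scaled by TMM and compared by limma-voom (limma 3.58.1, edgeR 4.0.16, R 4.3.3) without covariates. Adjusted p-values are Benjamini-Hochberg over all 15340 genes. Log2 CPM of single libraries used a prior count of 2. The log2 CPM table was fitted by limma-trend as deposited. For single genes, exact permutation p-values (two-sided) used the 126 possible splits. Libraries held 28245360 or more counts, and counting error weighs most for the lowest members, such as Rps19bp1 and Rpl12. The lowest chi-square per gene between libraries of a group was 7.49, so none was a repeat of another. Pseudogenes were matched to genes by blastn 2.17.0 (at least 90% identity over at least 50% of the copy; 430 matched a member). Windows at gene starts come from RefSeq, which held 62 members; the others, and sequences of chromosome 18, are not shown.

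The members and lists were chosen with earlier results of these data known. The genes named are those with the 8 smallest p-values under 0.05 in each direction, the 4 highest and 4 lowest levels, the extremes of fold change and of spread, paralogs and their parents, the leading genes of each list, and textbook members. Rpl4, Rpl32 and the genes named because a count fell on them were added after their values were seen. A marker and a list gene are not reported here. Tests were checked on simulated counts in which the changed genes differed by more than any member did here. How often they find differences as small as those of the members was not tested. The alternatives were DESeq2 1.42.0, edgeR, limma-trend, sample weights, other scalings and filters, other sums of transcripts, removal of trends with length or GC content (lowess, span 0.3), the replicate block and each library left out. Added after the data were seen were the sum with matched copies, the removal of both Emul 2 and Emul 3, and the TPM ratio. P-values measure the spread between these litters.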

Additional observations from a re-analysis of the deposited data

Results flagged for a closer look

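In 6 of 88 groups of values examined, the highest or lowest library stood apart from the rest by Dixon's test; 4.4 such flags are expected by chance. The gap is given as a share of the range of the group. CTRL 3 was low for Rpl13a (0.959 of the range; 7.83 against 7.93 to 7.94 log2 CPM), for the share of counts on the members (0.882; 0.918% against 0.947% to 0.951%) and for the median deviation of the shorter members (0.83; -0.12 against -0.03 to -0.02 on the log2 scale). Emul 2 was high for Rpl36al (0.836; 5.59 against 5.20 to 5.26 log2 CPM) and for Rps24 (0.768; 7.89 against 7.56 to 7.64 log2 CPM). Emul 3 was low for Rpl11 (0.809; 6.29 against 6.59 to 6.66 log2 CPM).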

How the results depend on the processing

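Leaving out 1 library at a time gave 4 to 27 members higher and 0 to 1 lower at an unadjusted p under 0.05. Of all genes, 5.13% to 8.29% were higher and 7.35% to 9.08% lower in these fits. The replicate numbers of the labels do not pair the samples (correlations of the deviations of same-numbered libraries -0.16, -0.01, 0.02 and -0.06, and 0 samples correlated best with their own number). The replicate block gave 18 higher and 0 lower, against 5.47% and 6.87% of all genes. DESeq2 gave 16 higher, against 7.05% of all genes, and 1 past the adjusted p. Library size alone gave 5 higher, against 3.37% of all genes, and protein-coding transcripts alone gave 1 lower, against 8%. The removal of the length trend gave 5 lower, against 8.70% of all genes. The removal of Emul 2 and Emul 3 together gave 19 higher, against 5.95%. The median log2 fold change of the members stayed above 0 in all of these fits and was -0.033 on TPM. The Rpl13a log2 fold change turned to -0.18 with protein-coding transcripts alone. The causes were not tested. 0 members passed the cutoff of p and fold under any alternative with a test. Single values were compared across the alternatives for a part of the members, not for all of them. Of these values, 953 stayed on their side of the unadjusted threshold, 44 left it, 36 entered it and 1 was reversed. Gene and copy counts cannot be separated where they are identical.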
